A study of Mus musculus with 6 samples.

Results

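The promoters of Map3k4, Mapk14 and Map3k5, 3 genes of the mitogen-activated protein kinase (MAPK) pathway, were examined on methylated DNA immunoprecipitation (MeDIP) promoter arrays of mouse adipose tissue. Probes were taken from a window of 3 kb on each side of the start site of each gene, with positions as the array files give them on the mouse build mm9. The windows held 34 of the 174276 promoter probes that passed quality flags, 11 at Map3k4, 15 at Mapk14 and 8 at Map3k5. Neighbouring probes were joined into a region where the distance between their starts was no more than 500 bp, and the 34 probes formed 4 of the 22584 promoter regions with at least 3 probes. Map3k4 had 1 region of 11 probes (chr17:12510419-12512709, gene on the minus strand). Mapk14 had a main region of 11 probes (chr17:28827736-28829898, plus strand) and, before it, an upstream region of 4 probes (chr17:28826433-28827097). Map3k5 had 1 region of 8 probes (chr10:19653038-19654632, plus strand). The files name no exon or intron for these positions.

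The mice were female C57BL offspring killed at 32 weeks of age, and each array held DNA from the fat of 1 mouse. In the LC group (n = 3) the dams received a low chromium diet through gestation and lactation and the offspring a control diet after weaning. In the CC group (n = 3) dams and offspring received the control diet throughout. In the study's own work these promoters were taken on to bisulfite sequencing as hypomethylated in LC, after the same arrays had been read. The direction of the differences given here is therefore no independent evidence. By the bisulfite sequencing the study reported these promoters as significantly less methylated in LC, and by real-time PCR it reported higher expression of their genes. No cell type of the adipose tissue can be checked from DNA arrays of this kind, so a shift in cell composition and a shift within cells cannot be told apart.

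MAPK signaling runs through a chain of kinases. Map3k4 (MEKK4) and Map3k5 (ASK1) are MAP kinase kinase kinases at the top of the chain: the former is switched on by Gadd45 stress proteins, the latter by oxidative stress and tumor necrosis factor once thioredoxin lets go of it. Both act through MAP kinase kinases on the p38 and JNK kinases. Mapk14 encodes p38α, the terminal kinase, which phosphorylates transcription factors such as Atf2 and takes part in adipocyte differentiation and thermogenesis. Methylation of cytosine at CpG sites of a promoter is commonly associated with lower transcription, and CpG-rich promoters are usually little methylated.

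The array compares immunoprecipitated DNA with input DNA, and the antibody binds methylated cytosine, so the CpG sites of each promoter set what can be captured. RefSeq promoter windows on the build GRCm38.p6, from 250 bases before to 50 after a start, were found for all 3 genes, with 2 starts for Mapk14 that lie 1226 bases apart. The Map3k5 window held 47 CpG sites, more than 98.6% of the 32851 promoter windows of the table. The Map3k4 window held 38, more than 95.05% of windows, and the first Mapk14 window 33, more than 91.4%. The second Mapk14 window was poorer, with 18 CpG sites, and the median over all windows was 7. GC content was 79.7% at Map3k5, 72.7% at Map3k4, 68.7% at the first and 50% at the second Mapk14 start, against a median of 52.7%. The stretches before the start that lie outside every annotated gene span are given here with each CpG in capitals, read 5′ to 3′ on the strand of the gene, to show how densely the sites lie. The first (chr17:12318797-12318852, GRCm38.p6, minus strand) lies between Map3k4 and the divergent long noncoding RNA 4732491K20Rik and holds 8 CpG sites in 56 bases. The second (chr17:28691274-28691341, GRCm38.p6, plus strand) lies between Slc26a8 and the first start of Mapk14 and holds 7 in 68 bases.
Map3k4: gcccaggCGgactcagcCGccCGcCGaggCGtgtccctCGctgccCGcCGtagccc
Mapk14 start 1: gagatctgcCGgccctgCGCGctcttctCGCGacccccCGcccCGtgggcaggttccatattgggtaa
The windows of Map3k5 and of the second Mapk14 start lie inside the span of their own gene, and only their composition is given. The probe positions are on mm9 and were not converted, so these stretches were not placed against the probes.

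The log2(MeDIP/input) ratio, centred on the median of each array, was lower in LC than in CC at Map3k5 and at the main region of Mapk14. It was not called different at Map3k4 or at the upstream region of Mapk14. Thus 2 of 4 regions were called lower and none higher by limma (adjusted p threshold 0.05), while 8.84% of all regions were called lower and 10.2% higher. Without adjustment, 3 of the 4 regions passed 0.05 as lower and 0 as higher, against 17.2% and 21.5% of all regions.

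Map3k5, the oxidative stress-responsive kinase, had the largest difference of the 4 regions. Its ratio was 0.61, 0.85 and 0.92 in LC replicates 1, 2 and 3 and 1.06, 1.02 and 1.17 in the CC replicates. Every LC value lay below every CC value, and LC1 was the lowest. The LC mean was 0.79 ± 0.17 (SD, n = 3) and the CC mean 1.08 ± 0.07 (SD, n = 3), a difference of -0.29 (SE 0.08, limma adjusted p = 0.0353). Of all regions, 2.62% had a lower difference.

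At the main region of Mapk14, which encodes p38α, the ratio was 0.03, 0.14 and 0.20 in the LC replicates and 0.34, 0.36 and 0.43 in the CC replicates. The groups did not overlap, and the gap between them was wider than the spread within CC. The LC mean was 0.13 ± 0.09 and the CC mean 0.37 ± 0.05 (SD, n = 3 each), a difference of -0.25 (SE 0.06, limma adjusted p = 0.0234), and 4.39% of all regions had a lower one. The upstream region gave -1.46, -1.34 and -1.52 in LC and -1.44, -1.39 and -1.38 in CC. There the groups overlapped, with a difference of -0.04 (SE 0.05, limma adjusted p = 0.641).

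At Map3k4, the Gadd45-responsive kinase, the ratio was -0.04, 0.13 and 0.08 in the LC replicates and 0.20, 0.26 and 0.13 in the CC replicates. The highest LC array and the lowest CC array differed by only 0.00073, so the groups touched. The difference of -0.14 (SE 0.06) did not pass the threshold (limma adjusted p = 0.110), and 15.0% of all regions had a lower one. LC values lay below all CC values in 3 of the 4 regions, as they did in 20.5% of all regions. For each of these, an exact two-sided permutation test reached its lower limit for 3 mice a group, p = 0.1.

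Both calls depended on the setting. With the replicate number, which is also the scan day, as a block, the adjusted p was 0.0508 for the main region of Mapk14 and 0.0529 for Map3k5. In that fit no region of the array was called, and 0.0508 was the smallest adjusted p of all. Within each scan day the LC array was lower: by -0.45, -0.18 and -0.24 at Map3k5, by -0.30, -0.22 and -0.23 at the main region of Mapk14, and by -0.24, -0.13 and -0.05 at Map3k4. The upstream region gave -0.03, 0.05 and -0.13. The Mapk14 call was also lost without CC1 (-0.27, adjusted p = 0.0832), without CC2 (-0.26, 0.0582) or without CC3 (-0.22, 0.0837). The Map3k5 call was lost without LC1 (-0.20, 0.0526), CC1 (-0.30, 0.103), CC2 (-0.32, 0.0673) or CC3 (-0.25, 0.117). Without CC1 or CC3, 0 of all 22584 regions were called in either direction, without CC2 2.29% were called lower, and without LC1 5.32%. The Map3k4 region was called lower when only the 7 of its 11 probes well above background in both dyes on every array were kept (difference -0.29, adjusted p = 0.00346), a filter under which 21.7% of all regions were called lower. It was also called lower with normexp background correction (-0.16, adjusted p = 0.0116), where 6.76% of all regions were.

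**Figure D1:**
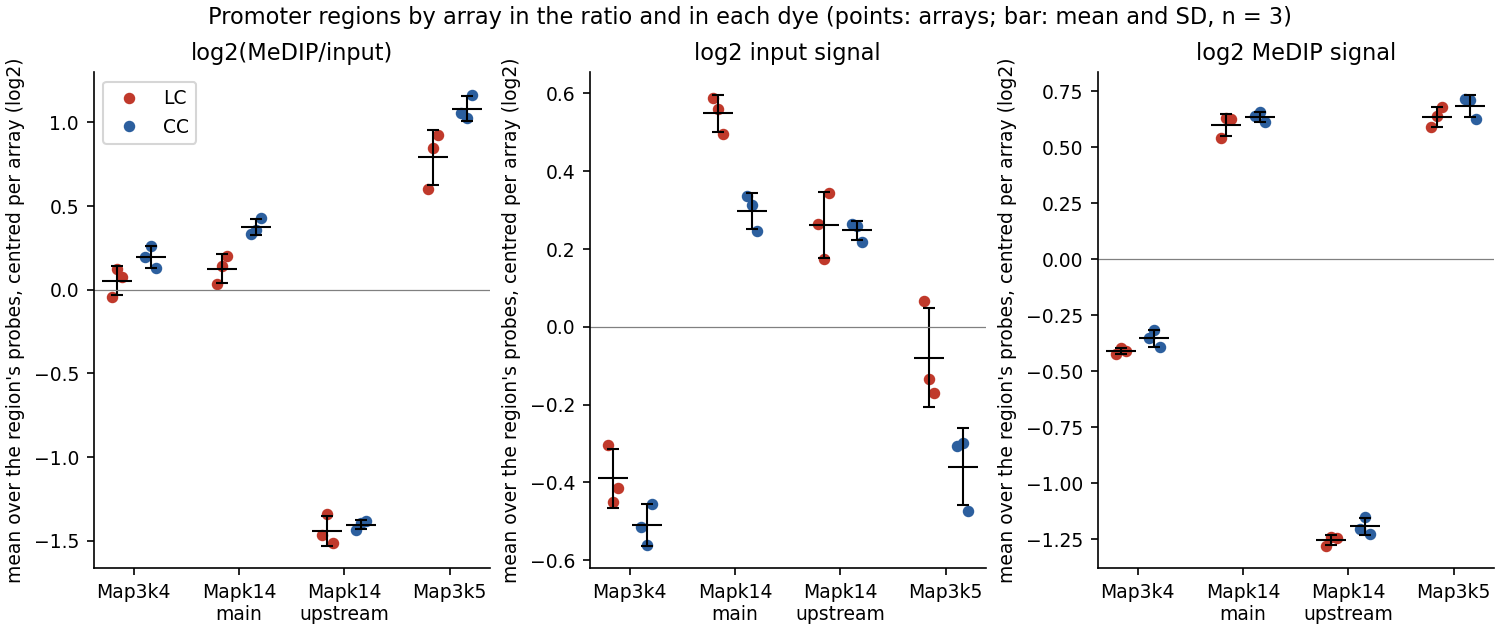
Mean over the probes of each region, centred on the array median (y axis, log2), for the ratio, the input signal and the MeDIP signal (panels), with each array a point and the mean and SD of 3 arrays as a bar. The ratio is lower in LC at Map3k5 and the main Mapk14 region, the input signal there is higher in LC, and the MeDIP signal differs little between the groups.

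The ratio is made of MeDIP signal (Cy5) over input signal (Cy3), with no dye swap, so each dye was examined alone. At Map3k5, Map3k4 and the main region of Mapk14 the groups differed more in the input than in the MeDIP signal. At the main region of Mapk14 the centred log2 input signal was 0.59, 0.56 and 0.50 in the LC replicates and 0.34, 0.31 and 0.25 in the CC replicates. The groups stood well apart, with a difference of 0.25 (SE 0.05, limma adjusted p = 0.0113), the size of the ratio's difference with the opposite sign. At Map3k5 the input signal was 0.07, -0.14 and -0.17 in LC and -0.31, -0.30 and -0.47 in CC, a difference of 0.28 (SE 0.07, limma adjusted p = 0.0242). Again no LC array overlapped CC, and LC lay wholly above CC in the input of 26.1% of all regions. At Map3k4 the difference was 0.12 (SE 0.05, adjusted p = 0.121), and at the upstream region of Mapk14 0.01 (SE 0.05, adjusted p = 0.868). The input signal was thus called higher in LC in 2 of 4 regions and lower in none, while 13.1% of all regions were called higher and 7.29% lower.

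In the MeDIP signal itself, 0 of the 4 regions passed the limma threshold, and 0.0133% of all regions did in either direction. At an unadjusted p under 0.05, 1 of the 4 was lower, the upstream region of Mapk14, and 0 higher, against 6.69% and 2.63% of all regions. The main region of Mapk14 gave 0.54, 0.63 and 0.63 in LC and 0.64, 0.66 and 0.61 in CC, a difference of -0.04 (SE 0.03, adjusted p = 0.734). Map3k5 gave 0.59, 0.64 and 0.68 in LC and 0.72, 0.71 and 0.63 in CC, a difference of -0.05 (SE 0.03, adjusted p = 0.652). In both regions the groups overlapped. Map3k4 gave -0.42, -0.40 and -0.41 in LC and -0.35, -0.32 and -0.39 in CC, and the upstream region -1.28, -1.24 and -1.24 in LC and -1.20, -1.15 and -1.22 in CC. In these 2 regions every LC value lay below every CC value, as it did in 8.2% of all regions, with a difference of -0.06 in each (SE 0.03, limma adjusted p = 0.544 and 0.519). Input DNA is not immunoprecipitated, and each dye was centred on its own array median. The differences of the dyes therefore need not add up to that of the ratio. What their split means for methylation was not tested. The arrays themselves differed in the input channel: the median input intensity above background ranged from 105 to 169 in LC and from 239.5 to 333.5 in CC, while the MeDIP medians ranged from 118 to 143.5 and from 142 to 218. Position 1 of a slide always carried LC and position 3 always CC, so diet group and place on the slide cannot be told apart. CC3 was also scanned at 306 V in the red channel, against 279 V for the other arrays. The part of these array properties in the differences was not tested.

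Along the promoters, 22 of the 34 probes had a lower ratio in LC and 6 were called lower by limma, which called 0 higher. Over the whole array 4.29% of probes were called lower and 1.75% higher. Without adjustment, limma gave 14 of the 34 probes as lower and 0 as higher, against 15.4% and 16.2% of all probes. The methods' t-test gave, by its unadjusted p, 15 and 1, against 12% and 13.1%. All LC values lay below all CC values at 15 of the 34 probes, against 17.7% of all probes, and above them at 2, against 20.7%. The differences ranged from -0.75 to 0.33, with a median of -0.18 over the 34 probes and 0.05 over all probes.

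**Figure D2:**
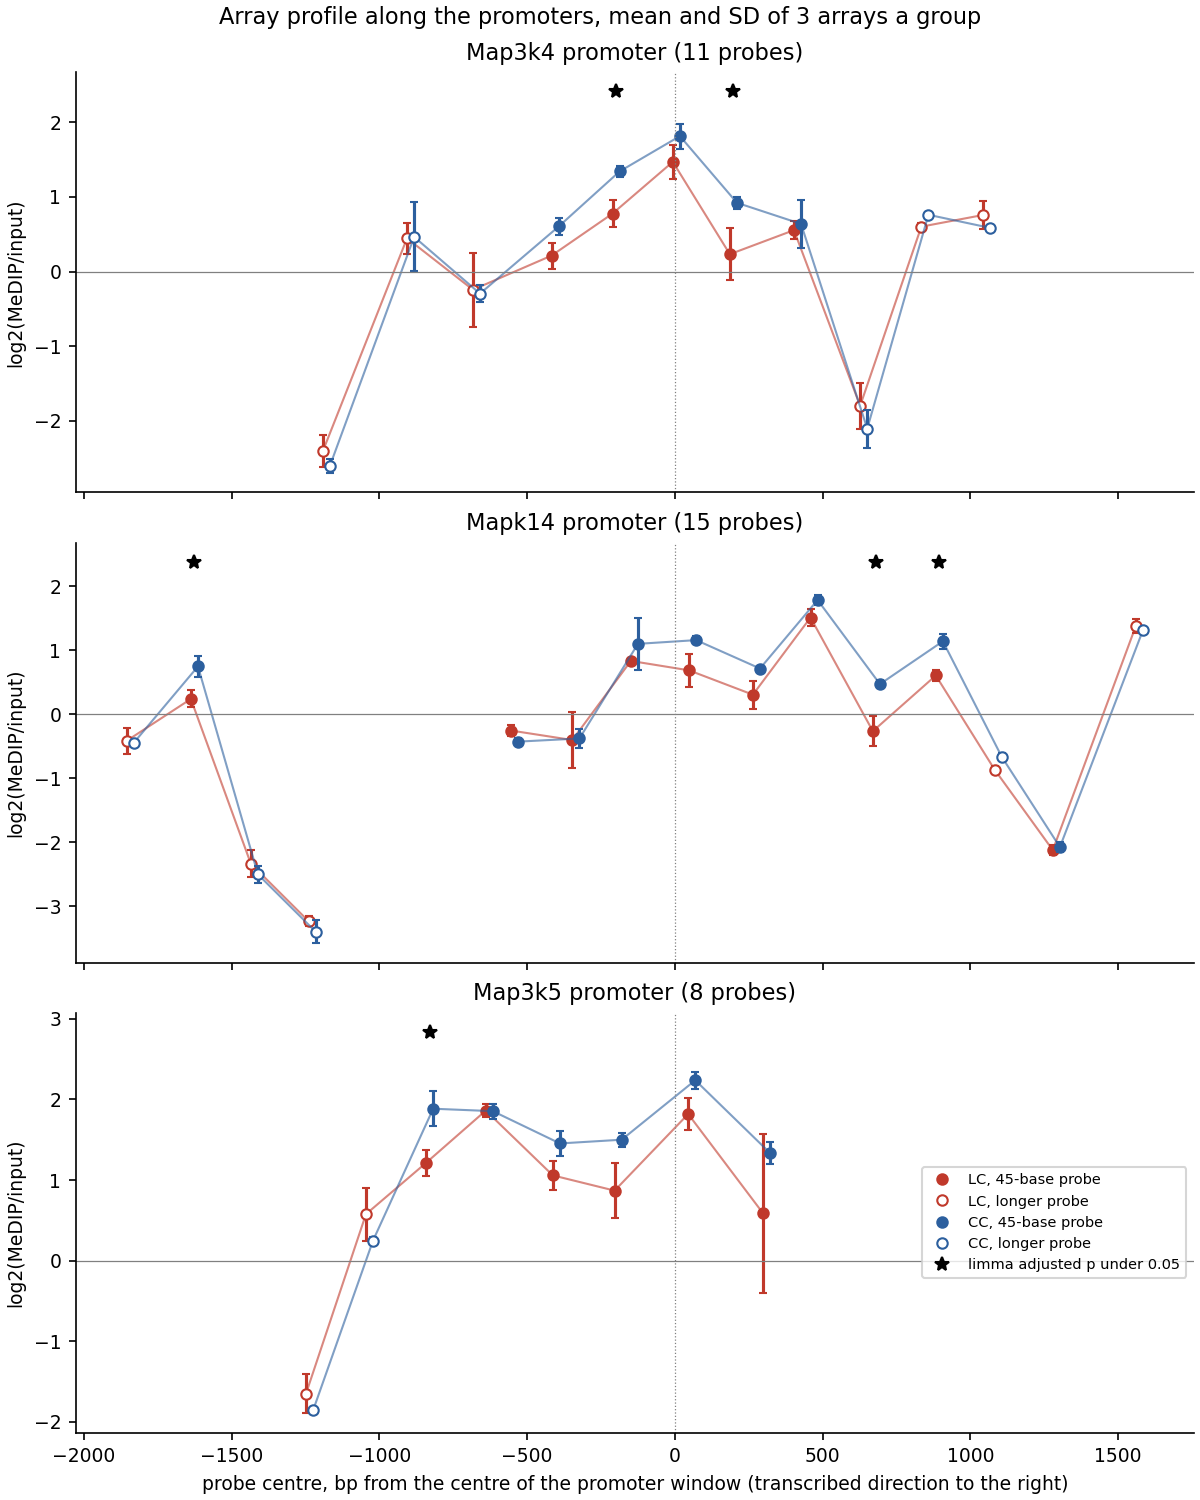
Mean log2(MeDIP/input) with SD of 3 arrays (y axis) at each probe by distance from the window centre in bp (x axis), for LC and CC, with filled points for 45-base probes and stars at the 6 probes called lower in LC. The groups part mostly at 45-base probes, by up to -0.74 among the called probes, which lie from -1626 to 895 bp. The 13 longer probes differ by -0.20 to 0.33.

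In the Map3k4 window the called probes lay on either side of the centre, which stands for the start site. At -199 bp the ratio was 0.67, 0.69 and 0.98 in LC and 1.41, 1.36 and 1.26 in CC, a difference of -0.57 (SE 0.11, limma adjusted p = 0.0388). At 198 bp it was -0.16, 0.50 and 0.36 in LC and 0.89, 1.02 and 0.86 in CC, a difference of -0.69 (SE 0.17, limma adjusted p = 0.0488). The groups did not overlap at either position. The probe between them, at 5 bp, showed overlapping groups and a difference of -0.34 (adjusted p = 0.137). The probe at -199 bp had the largest MeDIP difference of the 34, at -0.25.

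In the Mapk14 window 7 of the 15 probes had every LC value below every CC value, and 6 of these lay in a row from 60 bp to 1094 bp, past the centre. The largest difference of this row was at 682 bp (chr17:28828960-28829004), where the ratio was -0.54, -0.15 and -0.11 in LC and 0.46, 0.54 and 0.41 in CC. All LC arrays were negative and all CC arrays positive there, with a difference of -0.74 (SE 0.13, limma adjusted p = 0.0337). At 895 bp the ratio was 0.50, 0.65 and 0.66 in LC and 1.01, 1.19 and 1.23 in CC, a difference of -0.53 (SE 0.10, adjusted p = 0.0369). Before the centre, the probes at -137, -335 and -542 bp had no such split below CC. The upstream region held 1 called probe, at -1626 bp, with 0.29, 0.34 and 0.09 in LC and 0.93, 0.66 and 0.64 in CC (difference -0.51, SE 0.12, adjusted p = 0.0468). Its other 3 probes had differences of 0.03, 0.17 and 0.16, so the mean of this region hid opposite signs.

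In the Map3k5 window the called probe lay at -830 bp, with 1.02, 1.29 and 1.32 in LC and 1.93, 1.65 and 2.07 in CC (difference -0.67, SE 0.14, limma adjusted p = 0.0395). The probes at -401, -192 and 57 bp also had every LC value below CC, with differences of -0.40, -0.63 and -0.42 that were not called (adjusted p = 0.0821, 0.0548 and 0.0702). The probe at -628 bp, which lies within this row, differed by only 0.01. At 310 bp the difference was -0.75, the largest in size of the 34, but it rested on 1 array: LC1 gave -0.55, LC2 and LC3 gave 1.07 and 1.24, and the CC arrays gave 1.31, 1.21 and 1.48. The 2 probes farthest upstream, at -1236.5 and -1033.5 bp, were higher in LC by 0.21 and 0.33, with adjusted p = 0.293 and 0.185.

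The sign of the difference followed probe length. Probes on this array are 45 to 60 bases long, and 21 of the 34 were of 45 bases (61.8%, against 49.9% of all probes). Of these 21, 19 had a lower ratio in LC, whereas 3 of the 13 longer probes did. Over the whole array the ratio was lower in LC at 64.8% of 45-base probes and at 14.1% of 60-base probes, with median differences of -0.09 and 0.27. All 6 called probes were of 45 bases, a length at which 7.83% of all probes were called lower. With the trend on probe length removed from each array, the differences were -0.24 at Map3k5 (adjusted p = 0.0790), -0.16 at the main region of Mapk14 (0.0848) and -0.18 at Map3k4, and none of the 34 probes was called lower by limma. In that fit 2.85% of all regions and 0.604% of all probes were called lower. For 8 probes the MeDIP signal was not well above background on any array, 4 at Map3k4, 3 at Mapk14 and 1 at Map3k5. Their ratios are therefore limited by background.

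**Figure D3:**
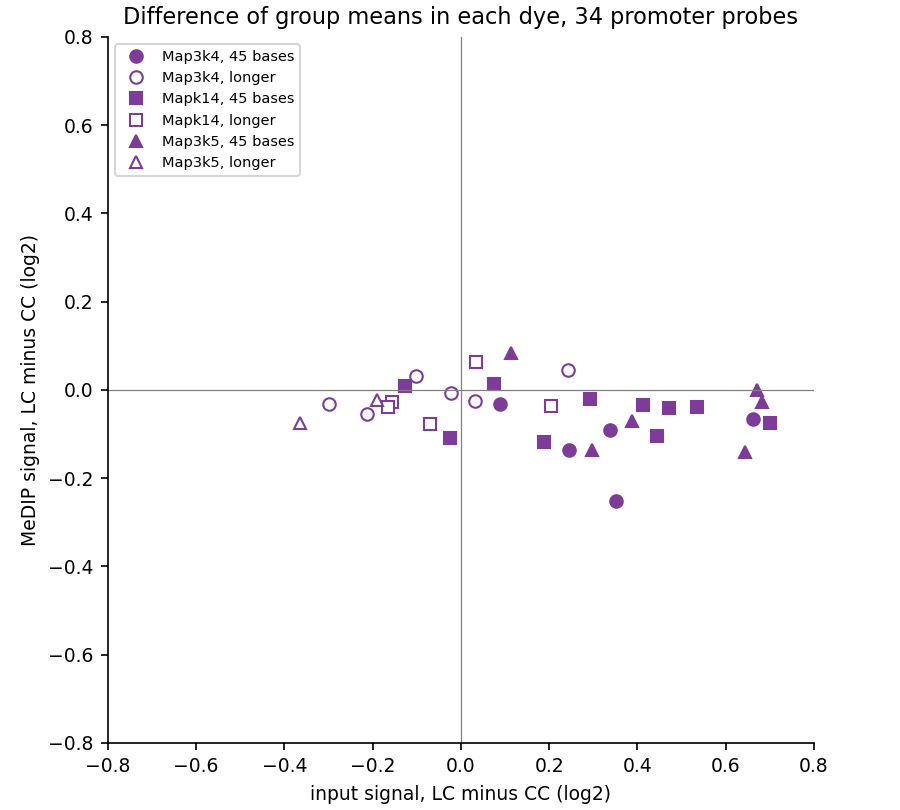
Difference of the group means (LC minus CC, log2) in the input signal (x axis) and in the MeDIP signal (y axis) for each of the 34 probes, on equal scales, with filled symbols for 45-base probes. The points spread along the input axis up to 0.70, while the MeDIP differences are at most 0.25 in size.

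Probe by probe, the input difference was larger in size than the MeDIP difference at 31 of the 34 probes. The input signal was higher in LC at 23 probes, with a median difference of 0.20. The MeDIP signal was lower in LC at 28 probes, but with a median difference of -0.04. Over all regions of the array the median difference was 0.02 in the input and -0.0066 in the MeDIP signal. The share of all probes with each sign was not counted, and the signs depend on how each dye was centred. At the called Mapk14 probe at 682 bp, for example, the input differed by 0.70 and the MeDIP signal by -0.08. At the called Map3k4 probe at -199 bp the input differed by 0.35 and the MeDIP signal by -0.25, the most even share among the called probes.

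The study's methods name a modified Kolmogorov-Smirnov (KS) test on adjacent probes for finding enriched regions, without saying how the groups entered it. A KS score was computed here from the difference of the group means, which need not equal the study's peak score. The probes in a 750 bp window around each probe were set against all probes of the array. The score was the exact one-sided p as -log10, and a run of 2 or more neighbouring probes scoring 2 or higher made a peak. A peak lower in LC was found in 3 of the 4 regions, against 4.1% of all regions, and a peak higher in LC in none, against 2.2%. The score takes no account of the spread between mice and is given as a description. At Map3k4 the peak held the probes at -199 and 5 bp, with a highest score of 2.73 and a median difference of -0.46. At the main region of Mapk14 it held 5 probes from 60 to 895 bp, with a highest score of 2.38 and a median difference of -0.47. At Map3k5 it held the probes at -192 and 57 bp, with a highest score of 3.13 and a median difference of -0.53. The upstream region reached only 0.36. The peaks at Map3k4 and Map3k5 thus spanned the window centre, and the one at Mapk14 lay past it. The centre stands for a single start, whereas Mapk14 has starts 1226 bases apart. The place of the Mapk14 peak against its other start was not determined here. In the study's own list its Mapk14 peak lies past the start of a transcript and before that of another. With a score of at least 3, only the Map3k5 peak was left, among 0.522% of all regions, and with at least 3 adjacent probes only the Mapk14 peak, among 1.09%. In some other settings a peak was lost because no 2 neighbouring probes both reached the score, although single probes did. This held for Map3k5 with the window set to 500 or 1000 bp (highest score 3.00 and 4.003), and for Mapk14 without LC2 (2.26) or with the trend on probe length removed (2.87).

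**Figure D4:**
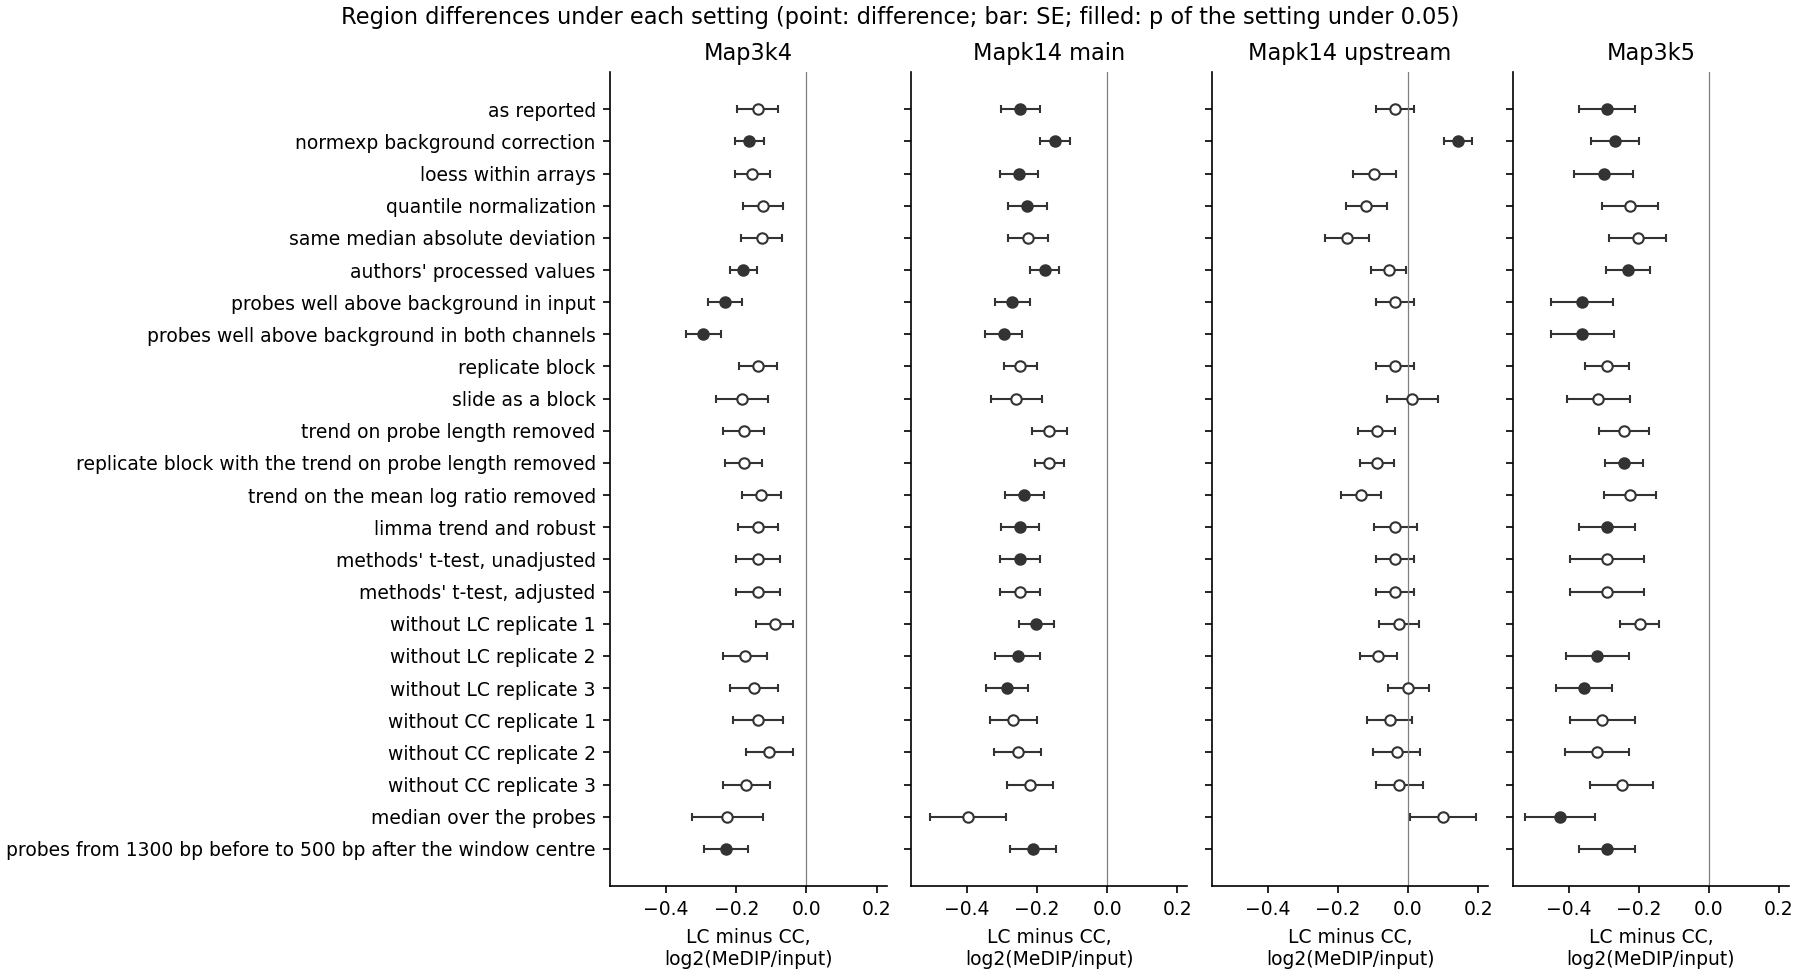
Difference LC minus CC in log2(MeDIP/input) with its SE (x axis, same scale in each panel) for the 4 regions under each processing setting (rows), filled where the p of that setting was under 0.05. The differences at Map3k4, the main Mapk14 region and Map3k5 are below 0 in every row shown, while the filled points come and go, and the upstream Mapk14 region lies on both sides of 0.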

How the data were processed

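Genomic DNA from adipose tissue was sonicated by the authors, immunoprecipitated with an antibody to methylated cytosine, and hybridised with input DNA of the same mouse to Agilent 2-colour promoter arrays, MeDIP in Cy5 and input in Cy3. The deposited array files hold red and green intensity values from Agilent Feature Extraction 11.0.1.1, already background-subtracted and dye-normalized, with a deposited log10 ratio that was used only to check the direction (r of at least 0.999 on every array). The authors' processed log2 values, with scale and centring not stated, served as an alternative (r = 0.866 to 0.905 with the values used here, column medians 0.016 to 0.034). Quality flags and feature positions come from the deposited files, per the file headers. There are 6 arrays, and their number limits the precision. Per the study's methods, each litter gave 1 female pup to a group.

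Removed were 5827 control features and 362 probes that any array flagged as an outlier. The log2 ratio of processed red over green was centred on each array's median, averaged over each region and tested by lmFit and eBayes of limma 3.58.1 (R 4.3.3; all 6 arrays, no covariates). Benjamini-Hochberg adjustment ran over all 22584 regions or 174276 probes. Each dye was tested the same way. KS scores used SciPy 1.17.1. The script for the limma fits was tested on simulated data. The named promoters, regions and probes are every one that the windows hold. The members, lists and tests were chosen with earlier results of these data known. Other genes of the pathway were not analysed here, because the positions are on mm9 without gene names and the gene tables used are on GRCm38.p6. Alternatives covered background correction, normalization, probe filters, trends, blocks, tests and each array left out.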

Additional observations from a re-analysis of the deposited data

How the results depend on the processing

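The replicate numbers did not pair the arrays by their deviations from the group means (correlations -0.16, 0.11 and -0.00084), yet each number is 1 scan day. With the replicate block the differences stayed at -0.29 (Map3k5, adjusted p = 0.0529) and -0.25 (main Mapk14 region, 0.0508), both calls were lost, as were those of all other regions, and 2 of the 34 probes were called lower, against 1.77% of all probes. With the probe-length trend removed as well, Map3k5 was called (-0.24, adjusted p = 0.0420), while the main Mapk14 region was not (-0.16, 0.0530). In that fit 4.09% of all regions were called lower and 1.79% higher. Of the 34 probes, 0 were called, against 1.14% of all probes called lower.

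The ratio at Map3k5 was also not called under quantile normalization (-0.22), equal spread of the arrays (-0.20), slide as a block (-0.31), removal of the trend on probe length (-0.24) or on the mean log ratio (-0.23), and the methods' t-test, unadjusted or adjusted (-0.29). The main Mapk14 region was not called with equal spread (-0.23), slide as a block (-0.26), the length trend removed (-0.16), the median over probes (-0.40) or the adjusted methods' t-test (-0.25). With slide as a block or the adjusted methods' t-test, 0 of all 22584 regions were called in either direction. Of all regions, 4.59% were called lower with quantile normalization, 4.39% with equal spread and 2.85% with the length trend removed. The share was 7.09% with the mean log ratio trend removed, 5.19% with the median over probes and 13.7% with the unadjusted methods' t-test. Slides were told apart by scan time, which left LC3 and CC3 each alone on a slide. The slide block therefore compares only LC1 and LC2 with CC1 and CC2. Map3k4 was called lower with normexp (-0.16), the authors' processed values (-0.18), a filter for probes well above background in input (-0.23) or in both channels (-0.29), and only probes from 1300 bp before to 500 bp after the window centre (-0.23). Of all regions, 6.76%, 9.26%, 14.5%, 21.7% and 8.85% were called lower in these settings, in this order. The last setting narrowed the probes of these promoters only. The upstream Mapk14 region turned positive with normexp (0.14, adjusted p = 0.0213), where 20.7% of all regions were called higher. It was also positive with slide as a block (0.012) and the median over probes (0.10). It had no value with probes well above background in both channels or with the narrower window. In all other settings these 4 ratios kept their direction and side of the threshold, apart from single arrays left out: Map3k5 then ran from -0.36 to -0.20, the main Mapk14 region from -0.29 to -0.20, Map3k4 from -0.17 to -0.09 (the latter without LC1) and the upstream region from -0.086 to 0.00082 (positive without LC3).

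In the input, Map3k4 was called higher with normexp (0.27), where 38.7% of all regions were. The upstream region turned negative with quantile normalization (-0.0032) and normexp (-0.016). With 1 array left out, Map3k5 ran from 0.21 to 0.33, not called without LC1, CC1 or CC3. In these fits 7.63%, 4.38% and 0 of all regions were called higher. The main Mapk14 region ran from 0.22 to 0.28, not called without CC3, and the upstream region from -0.028 to 0.057. In MeDIP, Map3k4 (0.0096) and the upstream region (0.030) turned positive with normexp. With 1 array left out, none of the 4 was called. Map3k5 ran from -0.08 to -0.03, the main Mapk14 region from -0.05 to -0.0072 (without LC1), Map3k4 and the upstream region from -0.08 to -0.04.

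Of the 34 probes, 6 were called lower as reported. The count, with the share of all probes in brackets, was 3 with loess (1.67%). It was 1 with quantile normalization (1.40%), equal spread (1.56%) or the mean log ratio trend removed (2.71%). It was 10 with the authors' values (7.74%), 11 with the filter on input (9.51%) and 12 with that on both channels (12.2%). With the length trend removed (0.604%), the adjusted methods' t-test (1 probe of all) or slide as a block (0 of all) it was 0. With the unadjusted methods' t-test it was 15 (12%). With 1 array left out it was 0 to 8. It was 1 without LC1 (2.10%), 8 without LC2 (6.09%), 4 without LC3 (4.10%) and 0 without CC1, CC2 or CC3 (0 of all). Probes called higher numbered 2 with normexp (13.5% of all probes) and 1 with the unadjusted methods' t-test (13.1%). With 1 array left out they numbered 0 to 1, the 1 without LC2 (3.65%). Regions with a KS peak lower in LC numbered 1 with a score of at least 3 (0.522% of all regions) and 1 with at least 3 adjacent probes (1.09%). The causes of these changes were not tested. The pathway list was not run. MeDIP signal over background limits 8 of the 34 probes.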
